A study of Arabidopsis thaliana with 8 samples.

Results

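The stretch of Arabidopsis thaliana chromosome 1 that runs from locus AT1G56720 to locus AT1G66100 was examined in the mutant line 15B and in the silenced line it came from. Its members are the probe sets of the Affymetrix ATH1 array that name 1 protein-coding gene with a locus number between those ends, both included. There were 352 such probe sets, for 348 genes, among 22746 on the array once the control probe sets were set aside. RefSeq lists 816 protein-coding genes between the same ends, so 42.6% of them had a member. The stretch was selected on these signals themselves, since many of its genes were lower in 15B than in the silenced parent, so the counts and fold changes of that contrast describe the members and carry no test here.

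Each sample was total RNA from the whole tissue of 10 pooled Landsberg erecta (Ler) plants, hybridised to 1 array, with 4 biological replicates per line. Line 15B is 1 mutant line obtained by ethyl methanesulfonate (EMS) mutagenesis of the silenced parent. The silenced parent, labelled CHS, carries an added copy of the chalcone synthase gene as a single homozygous insert that silences the resident gene TT4. Plants of 15B carry that insert as well. All plants were at growth stage 1.04, grown on Murashige and Skoog (MS) medium with 0.7% agar and 1% sucrose at 22 degrees C with 18 h of light, after 3 days at 4 degrees C. The series title names hog1, and no label states which gene is altered in 15B.

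As background, chalcone synthase catalyses the first step of flavonoid synthesis, and an added homologous copy can shut down both copies through RNA and DNA methylation. HOG1 encodes S-adenosylhomocysteine hydrolase, which removes an inhibitor of cellular methyltransferases. EMS makes point changes at many places in a genome. In plants, neighbouring genes are mostly transcribed from their own promoters, while members of tandem families sit side by side and can share probe sequence. The families named below for loci known only by number are general knowledge of Arabidopsis and were not read from the tables used here.

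The values are signals in arbitrary units, 1 per probe set and array, already brought to a common scale by the authors. A level of 1 probe set cannot be set against that of another. A probe set was tested where its mean over the 8 arrays was at least 30, which kept 177 of the 352 members and 13822 probe sets of the whole array. Fold changes are on the scale log2(signal + 10), as 15B minus silenced parent, with the standard error (SE) of the fit, and they understate the change of a dim probe set. A member is said to have fallen or risen where limma, fitted over the whole array, gave a Benjamini-Hochberg adjusted p under 0.05. Whole plants were sampled, so fewer cells of a type and less RNA per cell cannot be told apart.

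On the whole array 6.70% of the tested probe sets were called in either direction: 3.57% fell in 15B (494) and 3.13% rose (432). With single arrays left out the share that fell was 1.68% to 3.91%, and it moved by over 1.5 times in 5 of these fits. These lacked array 2 (296 falls), 3 (315 falls) or 4 (318 falls) of 15B, or array 2 (288 falls) or 3 (232 falls) of the silenced parent. With median centring 405 probe sets fell and 439 rose. Array background lay between 93.7 and 101 in 15B, and between 77.6 and 94.3 on 3 arrays of the silenced parent with 198 on its replicate 4. Of the leaf marker genes 1 of 6 had a named probe set, LHCB4.1 of the light-harvesting complex, at 4068 ± 280 in 15B and 4265 ± 465 in the silenced parent (SD, n = 4 each). Of the root marker genes 2 of 5 had one. Expansin EXPA7 differed by -0.09 and EXPA18, which lies in the stretch, by 0.08 on the log2 scale, and neither was called. The summed signal of both root markers was 80.4 to 96.1 in 15B and 75.0 to 102 in the silenced parent. The 4 flower and 3 seed marker genes had no named probe set, so these tissues were not checked.

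Within the stretch, 29 of the 177 tested members fell in 15B (16.4%, against 3.57% of all tested probe sets) and 2 rose (1.13%, against 3.13%). Together 31 members were called, against 6.70% of all tested probe sets. The remaining 146 were not called. The falls ranged from -4.07 to -0.39 on the log2 scale, with a median of -0.64. Of the 29 falls 4 were larger than 1.5, 3 lay between 1.0 and 1.5, 14 between 0.5 and 1.0, and 8 under 0.5. The stretch thus held 7 of the 35 falls of at least 2-fold on the whole array, and 2 of its 156 rises of that size. These array totals include probe sets that name no gene, several genes or a locus that is not protein-coding. Of the 7115 tested protein-coding probe sets outside the stretch, 3.20% fell and 2.08% rose. Among these, 11 falls and 34 rises were of at least 2-fold. All 29 fallen members, and 176 of the 177 tested members, were measured by _at probe sets, which are designed for 1 transcript. Of the 29, 4 had a 15B mean under 30 and passed the filter only through the silenced parent, namely AT1G66100, AT1G65370, AT1G63880 and AT1G62850.

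The groups did not overlap for any of the 29 fallen members, since each array of 15B was below each array of the silenced parent. Counting all tested members, 33 were lower without overlap (18.6%, against 8.07% of all tested probe sets) and 5 higher without overlap (2.82%, against 5.58%). An unadjusted p under 0.05 was reached by 43 members with lower signal in 15B (24.3%, against 12.8% of all tested probe sets) and by 14 with higher signal (7.91%, against 8.67%).

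**Figure D1:**
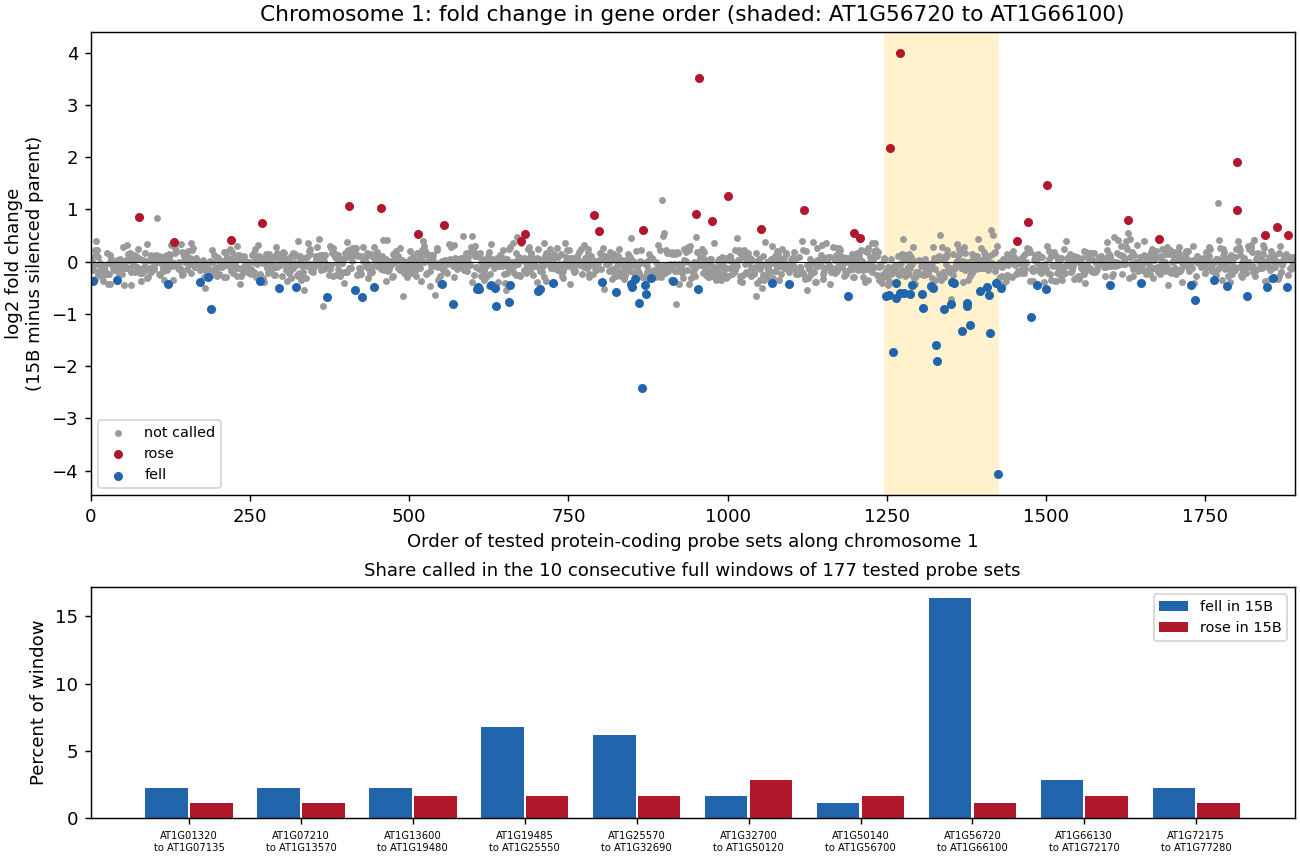
Upper panel: log2 fold change (15B minus silenced parent) of each tested protein-coding probe set of chromosome 1 in gene order, with the stretch shaded and called probe sets in colour. Lower panel: percent fallen and risen in consecutive windows of 177 tested probe sets. The share fallen was 16.4% in the stretch and 1.13% to 6.78% in the 9 other full windows.

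The ends of the stretch were set at called genes of this contrast, so the counts on either side restate that choice. The stretch of 177 tested probe sets before it, AT1G50140 to AT1G56700, had 2 falls and 3 rises, and the 177 after it, AT1G66130 to AT1G72170, had 5 falls and 3 rises. Over the rest of chromosome 1, 55 of 1712 tested probe sets fell (3.21%) and 31 rose (1.81%). On chromosomes 2 to 5, 173 of 5334 fell (3.24%) and 117 rose (2.19%). Among the 9 other full windows of this size on chromosome 1, the falls numbered 2 to 12, the rises 2 to 5, and the falls of at least 2-fold at most 1.

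At the lower end, AT1G56720, a protein kinase gene, was the first tested member and fell by 0.66. Its signals were 32.4, 34.0, 42.3 and 26.5 in 15B, against 48.9, 72.7, 69.8 and 47.7 in the silenced parent, so the groups lay close without overlapping. It was no longer called without replicate 1, 2 or 4 of 15B or without replicate 2 or 3 of the silenced parent, where the log2 fold change was -0.67 to -0.58. The next tested member, AT1G57540, differed by -0.17 and was not called. The first tested gene outside, AT1G56700, had 326 ± 10.3 in 15B and 385 ± 21.6 in the silenced parent, a difference of -0.23 that was not called although the groups did not overlap.

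At the upper end, the last tested member AT1G66100 showed the largest fall of the array, while its tested neighbour inside, AT1G66070, differed by 0.30 and was not called. The first tested gene outside, AT1G66130, differed by -0.35 and was not called. The first gene past this end that fell was AT1G66260, the fifth tested one, by 0.51 (132 ± 5.48 in 15B and 193 ± 8.73 in the silenced parent).

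Falls were spread along the stretch. Cut into 7 blocks of 25 or 26 tested members, it had 6, 3, 4, 3, 4, 4 and 5 falls in gene order. Both rises lay in the first block, AT1G56720 to AT1G60000. The median log2 fold change of the blocks was -0.18, -0.17, -0.12, -0.13, -0.05, -0.10 and -0.03. The fallen members formed 25 runs of neighbouring tested members. Of these runs 21 were single members and 4 were pairs of tested members. The pairs were CW14 with GSTU16, AT1G61730 with AT1G61740, TET10 with AT1G63290, and AT1G64190 with UBC28. Between consecutive runs lay a median of 5 tested members that did not fall. The longest such gaps held 15 members, from AT1G60810 (ACLA-2) to AT1G61730 and from AT1G64360 to AT1G64720 (CP5). No run reached 3 tested members. Genes that were not tested can lie within a run, as GSTU15, below the filter, does between CW14 and GSTU16.

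Over all 177 tested members the median log2 fold change was -0.11 (quartiles -0.26 and 0.05), against -0.03 over all tested probe sets (quartiles -0.16 and 0.10). Of the members 119 were negative (67.2%), against 55.6% of all tested probe sets. The negative share was 61.0% in the stretch before, 59.9% in the stretch after and 58.8% over the rest of chromosome 1. For the 146 members that were not called the median was -0.06, with 90 of them negative. The median was -0.06 in the stretch before and -0.05 in the stretch after.

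The members' summed signal was 28643 to 29313 on the 15B arrays and 31230 to 32281 on the silenced parent arrays, without overlap. As a share of all signal that was 0.911% to 0.935% in 15B and 1.00% to 1.05% in the silenced parent. The 29 fallen members alone summed to 3831 to 4096 in 15B and 6593 to 7826 in the silenced parent. The members other than the called ones summed to 23893 to 24587 in 15B and 24357 to 24554 in the silenced parent, where the groups overlapped.

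The share that fell was larger in bands of higher signal, among the members and over the whole array. With a mean signal of 30 to 60, 6 of 64 members fell (9.38%, against 1.88% of all tested probe sets in that band). From 60 to 120 it was 9 of 50 (18.0%, against 3.52%), and at 120 or more it was 14 of 63 (22.2%, against 4.86%). A call depends on the spread between replicates, so the spread is given only as a description. The median SD of log2 signal over 4 arrays was 0.159 in 15B and 0.162 in the silenced parent for the members, and 0.145 in 15B and 0.153 in the silenced parent for all tested probe sets.

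**Figure D2:**
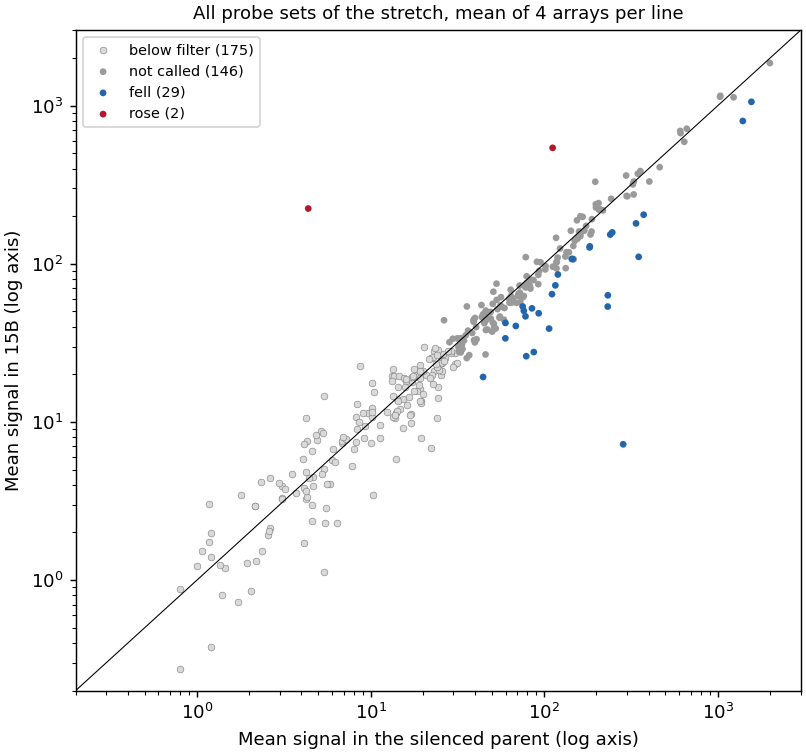
Mean signal of each of the 352 members in 15B and in the silenced parent, both on log axes in arbitrary units, coloured by call. The 29 fallen members lie on the silenced parent's side of the diagonal, from 7.23 against 285 for AT1G66100 to 1058 against 1562 for CP5, and the 2 risen members lie on the other side.

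The largest falls included genes for small secreted proteins and for TRAF-like proteins. AT1G66100 encodes a thionin, one of the small cysteine-rich peptides that plants make against microbes. Its signals were 4.4, 5.3, 5.7 and 13.5 in 15B, against 360.6, 180.0, 368.7 and 231.7 in the silenced parent. Every 15B array was near the bottom of the signal range. The mean was 7.23 ± 4.22 in 15B and 285 ± 94.1 in the silenced parent, a log2 fold change of -4.07 (SE 0.22), the largest fall of the array. The gene passed the filter only through the silenced parent and so had to differ. Because the 15B values lie below the added constant of 10, this size depends on that constant, at -5.18 with a constant of 1 and -3.04 with 30. The only other member of the thionin and defensin-like list, LCR66, was below the filter.

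AT1G62510 encodes a protein of the lipid transfer and 2S albumin superfamily, whose members bind lipids or store nitrogen. Its signals were 51.2, 68.7, 51.8 and 43.0 in 15B, against 154.9, 277.5, 305.3 and 191.5 in the silenced parent. The lowest silenced parent array was above all 15B arrays. The mean was 53.7 ± 10.8 in 15B and 232 ± 70.8 in the silenced parent, with a log2 fold change of -1.89 (SE 0.19). It was the fourth largest fall of the array. Of the other listed genes of this type, neighbouring AT1G62500 had 83.4 ± 28.8 in 15B and 79.3 ± 19.2 in the silenced parent. AT1G62790 differed by 0.06, and neither was called. Thus 1 of 3 tested genes of this type fell, against 16.4% of the stretch and 3.57% of all tested probe sets.

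The next tested member on the other side of AT1G62500 was AT1G62480, annotated in Arabidopsis as related to a vacuolar calcium-binding protein. It had 97.1, 83.5, 103.5 and 158.8 in 15B, against 262.5, 354.4, 331.9 and 452.1 in the silenced parent. Replicate 4 was the highest of its group in both lines, and the groups did not overlap. The log2 fold change was -1.59 (SE 0.18), from 111 ± 33.1 in 15B and 350.2 ± 78.4 in the silenced parent. The order of these 3 tested neighbours was thus a fall, a gene with a difference of 0.04, and a fall.

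ZW9 (AT1G58270) and AT1G65370 encode proteins with a TRAF-like domain, which in plants often occurs in adaptors that bind other proteins. ZW9 had 76.3, 67.0, 56.8 and 52.9 in 15B, against 211.5, 207.1, 288.2 and 224.1 in the silenced parent. The groups were far apart, with a log2 fold change of -1.73 (SE 0.13). AT1G65370 had 20.2, 32.3, 30.9 and 27.3 in 15B, against 72.9, 84.4, 89.6 and 101.8 in the silenced parent. Its log2 fold change was -1.37 (SE 0.14), also without overlap. With a 15B mean of 27.7, it passed the filter only through the silenced parent. These were the only 2 listed genes of this family, so both fell, against 16.4% of the stretch and 3.57% of all tested probe sets. The nearest tested neighbours of ZW9, AT1G58230 and CW7, differed by -0.12 and -0.11 and were not called.

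Genes of the nucleotide-binding leucine-rich repeat (NBS-LRR) and TIR type, the intracellular immune receptors of plants, occur in clusters in the stretch. Of 16 listed probe sets, 12 were below the filter, 1 fell and 3 were not called. The share that fell was 16.4% in the stretch and 3.57% over all tested probe sets. The one that fell, AT1G63880, had 13.1, 32.6, 29.1 and 29.4 in 15B, against 69.0, 65.1, 79.2 and 102.1 in the silenced parent. Replicate 1 of 15B was the lowest, and the groups did not overlap, with a log2 fold change of -1.32 (SE 0.19). Its 15B mean of 26.1 was below 30, so it too was tested only because of its silenced parent signal. AT1G61100 differed by -0.42 with overlapping groups, CW9 by -0.07 and AT1G63730 by 0.04. The median of the 4 tested genes on this list was -0.24, against -0.03 over the array. The list may lack tested genes of this type, and with so few genes its median would move.

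AT1G64360, a gene of unknown function, was the smallest of the 7 falls of at least 2-fold. It had 31.2, 54.5, 40.7 and 29.4 in 15B, against 82.5, 127.6, 155.1 and 61.9 in the silenced parent. The lowest silenced parent array, replicate 4, was only slightly above the highest 15B array, and the log2 fold change was -1.21 (SE 0.24).

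**Figure D3:**
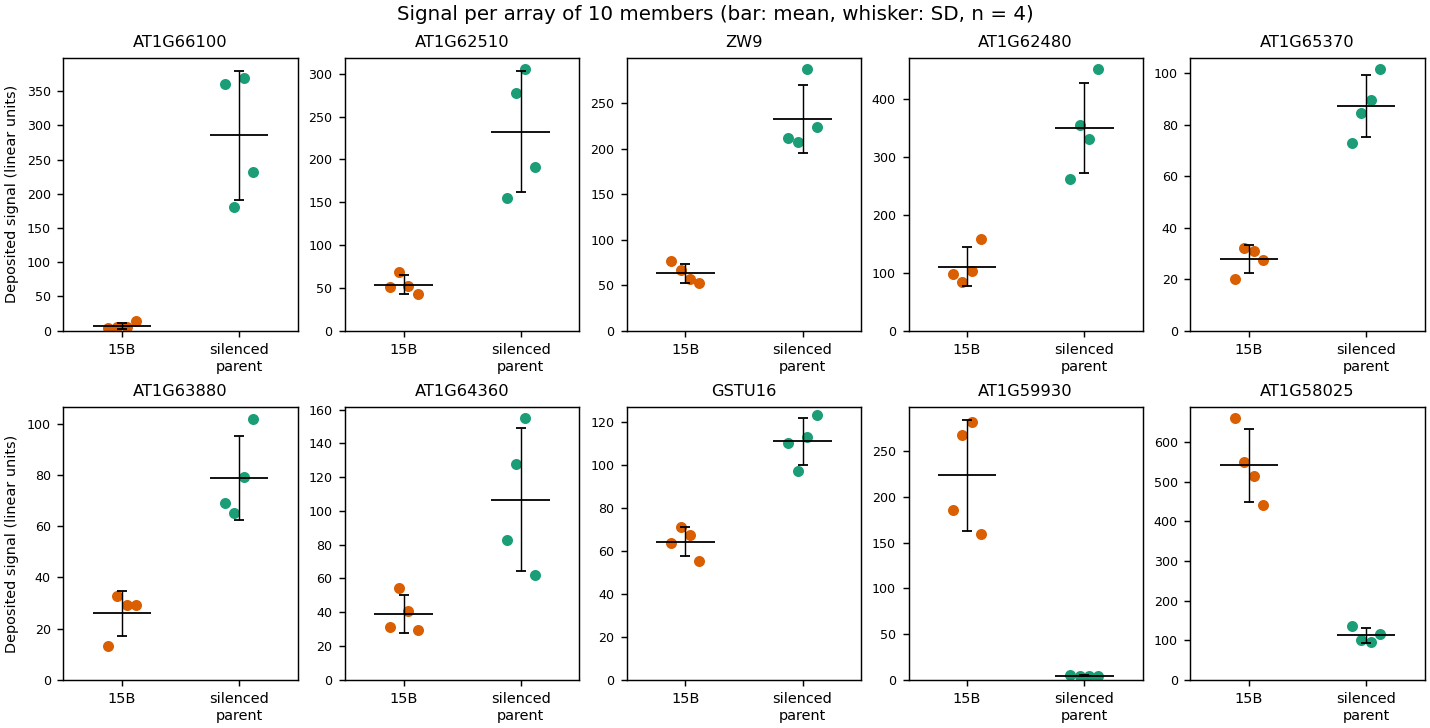
Signal on each array (points) with the group mean and SD for 10 members, 15B left of the silenced parent, in arbitrary units on an axis of its own for each gene. The 8 fallen genes have every 15B point below every silenced parent point, and the 2 risen genes, AT1G59930 and AT1G58025, show the opposite.

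Among genes of detoxification and redox metabolism, glutathione transferases join glutathione to reactive compounds, and aldo-keto reductases reduce carbonyl groups. GSTU16 (AT1G59700), a transferase of the tau class, had 63.9, 71.0, 67.3 and 55.1 in 15B, against 110.4, 97.1, 112.9 and 123.5 in the silenced parent. The groups did not overlap, and the log2 fold change was -0.70 (SE 0.10). It was 101st among the falls of the array by size. Of the other listed genes, GSTU15 was below the filter, and AT1G65820, a microsomal enzyme, differed by 0.18 and was not called.

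Of 3 tested aldo-keto reductases 2 fell, against 16.4% of the stretch and 3.57% of all tested probe sets. This list, those above and those that follow were made with earlier results of these data known, so their counts are no independent evidence. ATB2 (AT1G60710) had 158 ± 18.0 in 15B and 247 ± 13.7 in the silenced parent, a log2 fold change of -0.62. AT1G59960 had 52.3 ± 5.76 in 15B and 85.1 ± 11.3 in the silenced parent, a log2 fold change of -0.61. AT1G60690 differed by -0.12, and the other 2 listed members were below the filter. Tandem copies of this family can share probe sequence, which was not tested. The fallen probe sets were of the _at kind, as were 13286 of the 13822 tested probe sets of the array.

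Of 4 tested genes of central carbon metabolism, 3 fell, again against 16.4% of the stretch and 3.57% of all tested probe sets. AT1G64190 encodes a 6-phosphogluconate dehydrogenase of the oxidative pentose phosphate pathway. It had 211.3, 175.4, 209.7 and 221.4 in 15B, against 407.2, 327.3, 392.0 and 371.0 in the silenced parent. No array of 15B came near the silenced parent, and the log2 fold change was -0.84 (SE 0.10). ACLA-2, a subunit of ATP-citrate lyase, which makes cytosolic acetyl-CoA, had 85.7 ± 11.4 in 15B and 120 ± 10.9 in the silenced parent. Its log2 fold change of -0.45 lost its call without replicate 2 or 3 of either line, at -0.43 to -0.39. AT1G63290, a ribulose-phosphate epimerase of the same sugar pathway, had 107 ± 9.05 in 15B and 144 ± 18.4 in the silenced parent. Its log2 fold change was -0.39, the smallest of the falls. It was not called without replicate 2, 3 or 4 of 15B or without replicate 3 or 4 of the silenced parent, at -0.38 to -0.31. cICDH, the cytosolic isocitrate dehydrogenase, was not called, at 1860 ± 189 in 15B and 1996 ± 231 in the silenced parent, with overlapping groups.

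Of 4 tested genes of ubiquitin conjugation, the proteasome and autophagy, 2 fell, beside the same shares of 16.4% and 3.57%. UBC28, a ubiquitin-conjugating enzyme, had 705.6, 904.4, 754.7 and 837.0 in 15B, against 1211.4, 1554.4, 1458.7 and 1352.8 in the silenced parent. The groups did not overlap, with a log2 fold change of -0.79 (SE 0.10). ATG8C, whose product coats autophagosome membranes, had 129 ± 8.61 in 15B and 183 ± 11.3 in the silenced parent, a log2 fold change of -0.48. The proteasome subunit gene RPN12a differed by 0.10 and the ubiquitin ligase gene PUB19 by 0.13, and neither was called.

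Other fallen members encode membrane or lipid-binding proteins. AT1G61740, of a family related to bacterial sulfite exporters, had 217.2, 169.2, 170.0 and 164.3 in 15B, against 304.3, 341.5, 344.6 and 362.3 in the silenced parent. Replicate 1 of 15B stood above the other 15B arrays, yet below all of the silenced parent, and the log2 fold change was -0.88 (SE 0.10). TET10, a tetraspanin with several membrane spans, had 54.4, 44.2, 44.4 and 51.7 in 15B, against 71.7, 102.5, 104.1 and 93.7 in the silenced parent. Its groups did not overlap, at -0.80 (SE 0.12). CP5 carries a lipid-binding START domain and was at 1058 ± 62.1 in 15B and 1562 ± 183 in the silenced parent, a log2 fold change of -0.55. AT1G60160, a potassium transporter gene, fell by 0.60 on the log2 scale.

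AT1G62850, of a family of peptide chain release factors, had 15.6, 17.8, 20.1 and 23.5 in 15B, against 38.6, 43.5, 42.4 and 53.4 in the silenced parent. All 15B arrays were below the filter level of 30, so the gene was tested because of its silenced parent signal. Its log2 fold change was -0.90 (SE 0.14), and without replicate 4 of the silenced parent its mean dropped below the filter.

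AT1G60160 and the remaining 8 falls, which lay between -0.64 and -0.41, were named after their values were seen. These 8 were AT1G65280, a gene for a DNAJ-type chaperone (-0.64), AT1G57770, an oxidoreductase gene (-0.64), AT1G61730 (-0.62), AT1G62290, an aspartic protease gene (-0.50), AT1G65220 (-0.49), AT1G65950, an ABC1-type kinase gene (-0.42), CW14 (-0.42) and AT1G63420 (-0.41). Of these, AT1G62290 kept its call only without replicate 2 of the silenced parent when single arrays were left out, at -0.53 to -0.42 otherwise. AT1G65950 kept its call without replicate 3 of 15B or replicate 1 of the silenced parent, and was at -0.43 to -0.38 in the other 6 fits. CW14 kept its call when the silenced parent lacked array 1 or 4, and was at -0.45 to -0.36 in the other 6 fits. AT1G63420 lost its call without replicate 3 of the silenced parent, at -0.39.

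**Figure D4:**
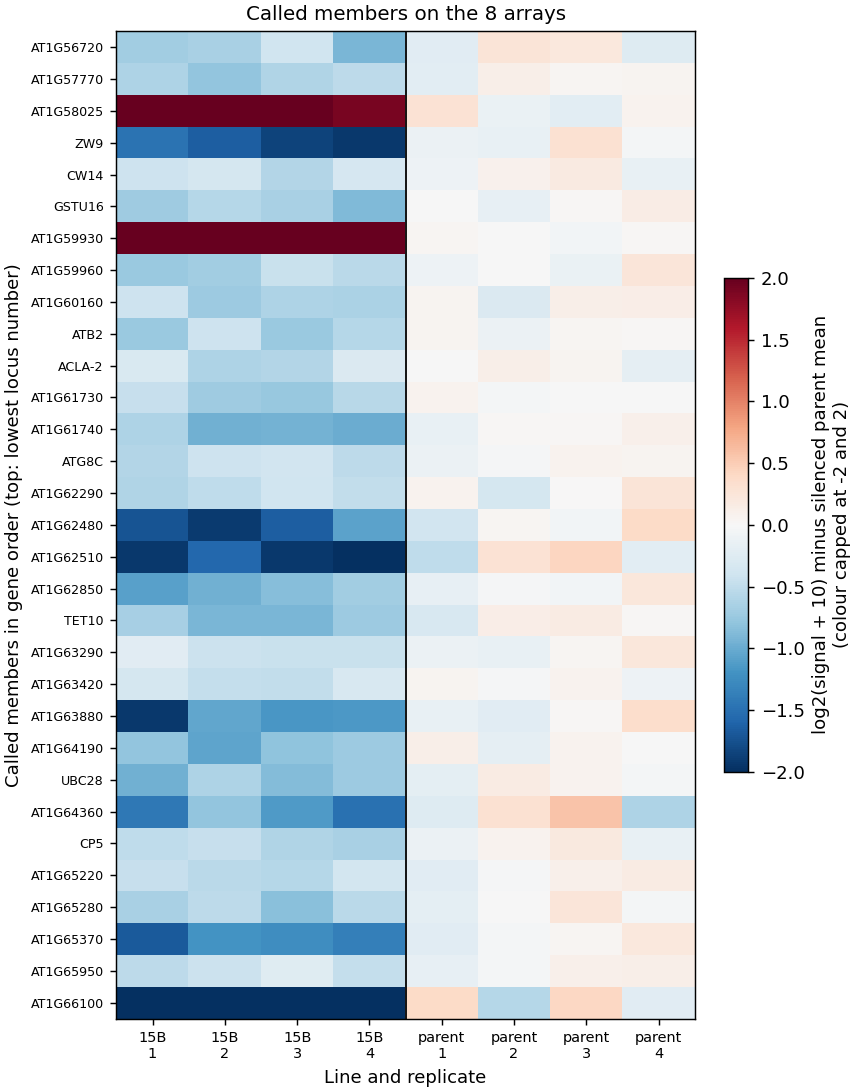
Signal of the 31 called members on the 8 arrays as log2(signal + 10), each member shown relative to its mean in the silenced parent and with colour capped at a difference of 2, with the 15B arrays left of the silenced parent arrays and the members in order along the chromosome. The 29 fallen members are low on the 15B arrays and the 2 risen members are high on them.

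The 2 risen members were AT1G58025 and AT1G59930. AT1G58025 encodes a protein with a bromodomain, a fold that binds acetylated histones. It had 660.2, 550.2, 514.5 and 440.4 in 15B, against 137.0, 99.9, 94.5 and 116.2 in the silenced parent. Every 15B array was several times higher than the silenced parent, with means of 541 ± 91.5 in 15B and 112 ± 19.1 in the silenced parent. The log2 fold change was 2.18 (SE 0.13), 74th among the rises of the array. Its tested neighbours AT1G57790, an F-box gene, and AT1G58110 differed by -0.37 and -0.24 and were not called. It was the only 1 of 7 listed chromatin loci with a named probe set.

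AT1G59930 had 185.8, 268.1, 281.9 and 159.1 in 15B, against 4.8, 4.3, 3.8 and 4.6 in the silenced parent. The silenced parent arrays were all near the bottom of the signal range, so the gene passed the filter only through 15B and had to differ. The mean was 224 ± 60.5 in 15B and 4.38 ± 0.435 in the silenced parent. The log2 fold change was 3.99 (SE 0.17), 22nd among the rises of the array, and it was 5.35 with a constant of 1 and 2.85 with 30. The probe set is of the _x_at kind, whose probes other sequences share, so the signal cannot be assigned to this locus alone. Of its tested neighbours, AT1G59910 differed by -0.25 and was not called, and AT1G59960 is the fallen aldo-keto reductase gene.

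The other gene families listed for the stretch held no called member, and these lists may be incomplete. Of 14 S-domain receptor kinase probe sets, which form a cluster from AT1G61360 to AT1G61610, 12 were below the filter. AT1G61360 differed by -0.23 and SD1-29 by -0.20. Of 13 pentatricopeptide repeat probe sets, whose proteins bind organelle RNA, 10 were below the filter. AT1G60770 differed by 0.09, CRR28 by 0.10 and PPR336 by -0.15. Of 7 listed probe sets for cell wall enzymes and expansins 5 were tested, with differences from -0.21 (GH9C2) to 0.08 (EXPA18) among those listed. Of 4 F-box probe sets 1 was tested, AT1G57790. Of 6 listed photosynthesis and chloroplast loci, CRR28 was the only one with a named probe set. AT1G64510, a gene for a plastid ribosomal protein, had 1130 ± 70.4 in 15B and 1233 ± 101 in the silenced parent and was not called.

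The largest differences that were not called were picked after their values were seen. AT1G63240 differed by -0.71, with 39.6, 10.5, 40.8 and 16.0 in 15B, so that 2 arrays of 15B were near the silenced parent and 2 far below it. Among higher values, AT1G65500 differed by 0.61, with 150.8, 231.3, 358.9 and 580.7 in 15B, against 152.2, 236.3, 127.5 and 271.8 in the silenced parent. The groups overlapped, and both had a wide spread. AT1G62760 and AT1G65690 differed by 0.51 each.

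The 175 members below the filter had median group means of 10.8 in 15B and 11.3 in the silenced parent, and 79 of them averaged under 10. At the filter, AT1G57700 lay just below, with 27.3 ± 3.83 in 15B and 30.9 ± 4.45 in the silenced parent. AT1G63200 lay just above and differed by -0.17. With all probe sets of the array tested, 27 of 352 members fell, against 1.61% of all, and 2 rose, against 2.04%. In that fit 3 dim members were among the falls. AT1G58150 had 6.83 ± 2.95 in 15B and 22.3 ± 3.51 in the silenced parent. AT1G59850 had 1.13 ± 0.0957 in 15B and 5.43 ± 1.80 in the silenced parent, and AT1G62045 had 7.98 ± 3.26 in 15B and 19.5 ± 4.79 in the silenced parent. Signals this low are near the bottom of the range, so the sizes of these differences are uncertain.

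For 4 genes of the stretch there were 2 probe sets each. In AT1G60200, AT1G62760 and AT1G62880 one was tested and not called and the other was below the filter, and in GLC both were below it. No gene therefore had its change measured by a second tested probe set. Outside the rule, 12 probe sets of the range name a locus that is not protein-coding, of which 1 was tested. This was AT1G59265, measured by an _s_at probe set, which rose by 0.74 (74.6 ± 3.55 in 15B and 40.5 ± 2.50 in the silenced parent). A further 34 probe sets touching the range name several genes each, so their signal cannot be placed at 1 locus. Of the 17 tested 3 fell and 1 rose, beside 3.57% and 3.13% of all tested probe sets.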

How the data were processed

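Total RNA of 8 samples, 4 of 15B and 4 of the silenced parent, was measured on 1-colour Affymetrix ATH1 arrays. The authors deposited 1 intensity value per probe set and array on a linear scale, and the software that summarised the probes is not given in the sources used here. All columns were mapped to an array by their labels (0 unmapped). Replicates are separate pools per the labels, and the number of arrays limits the precision.

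Of 22810 probe sets, 22746 remained without controls. Names came from the platform annotation of 2016 and the RefSeq gene table of TAIR10.1, which also gave gene order, and no coordinates are printed since the files name no build. In all 13513 probe sets name 1 gene, 503 several (left unnamed) and 8730 none, and 13436 of the first were found in RefSeq. Values were taken as log2(intensity + 10), filtered at a mean of 30 and fitted with limma 3.58.1 in R 4.3.3 (lmFit, eBayes with trend), two-sided, with Benjamini-Hochberg adjustment over 13822 probe sets.

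The members, the 12 family lists, the marker lists and the 2 locus lists were chosen with earlier results of these data known. The words planned for finding families matched few members, since the tables hold mostly locus numbers, so the families were listed from general knowledge and may be incomplete. Named are the 7 genes asked for, the 14 largest falls and up to 10 rises without overlap, up to 4 called members per list or 2 where none was called, the 4 brightest members, and the members at the ends and at the filter. Promoter and protein sequences were not used here.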

Additional observations from a re-analysis of the deposited data

Results flagged for a closer look

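Of 76 sets of 4 arrays examined, 7 held 1 array far from the other 3, where chance gives about 1 in 20. For AT1G61740, replicate 1 of 15B was at 217.2, against 164.3 to 170.0 on the other 15B arrays. For AT1G63290, replicate 1 of 15B was at 120.9, against 102.1 to 104.2. For AT1G66100, replicate 4 of 15B was at 13.5, against 4.4 to 5.7, while the silenced parent arrays were at 180.0 or more. The median deviation of the tested members from their mean over the 8 arrays was -0.0887 on the log2 scale for replicate 4 of 15B, against -0.0425 to -0.0362 on the other 15B arrays. Replicate 4 of the silenced parent had a background of 197.77, against 77.57 to 94.32, and a noise of 13.54, against 3.91 to 5.15 on the other silenced parent arrays. The scanner counted 1353 cells as outliers on replicate 2 of 15B and 403 to 505 on the line's other arrays. Without replicate 4 of the silenced parent 25 members fell and 3 rose, without replicate 4 of 15B 24 fell and 2 rose, and without replicate 2 of 15B 23 fell and 2 rose. Falls over the whole array were also fewer in these fits, at 438, 318 and 296 in the same order, against 494 with all arrays. The lower member counts are thus not particular to the stretch. The part of these array measures in the falls was not tested beyond these counts.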

How the results depend on the processing

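Of the 29 falls, 27 remained with quantile normalization and 28 with median centring or without the trend. All 29 remained with a robust fit, with added constants of 1 or 30 or with probe sets naming 1 gene. Of all tested probe sets 3.35% fell with quantile normalization, 2.93% with median centring and 2.97% without the trend. In the robust fit, with the other constants or with probe sets naming 1 gene it was 3.45% to 3.60%. With a filter of 60, 23 of 113 tested members fell (20.4%, against 4.65% of all tested probe sets). With no filter 27 of 352 fell (7.67%, against 1.61%), 24 of them among the 29. With a limit of 2-fold 7 falls (3.95%, against 0.253% of all tested probe sets) and 2 rises were left. With _at probe sets alone 28 of the 29 falls remained (15.9% of the tested members, against 3.34% of all tested probe sets), and AT1G65950 lost its call. In that fit 1 rise was left, AT1G58025, since AT1G59930 has an _x_at probe set. The median log2 fold change of the members was -0.063 with no filter, where 175 dim members enter, and -0.12 to -0.09 under the scalings, constants and other filters. Leaving out 1 array gave 22 to 29 falls (12.7% to 16.8% of the tested members, against 1.68% to 3.91% of all tested probe sets in these fits), 2 to 3 rises and medians of -0.13 to -0.09. Of the 29 falls 21 were called in all 8 of these fits, 2 in 6 or 7 and 6 in 5 or fewer. With the replicate number as a block 28 members fell (15.8%, against 4.11% of all tested probe sets), 26 of them among the 29, and 2 rose. The numbers were not taken to pair the samples. Same-numbered arrays correlated at 0.25, -0.01, 0.05 and 0.05 in their deviations from the group means. Differently numbered arrays correlated at -0.24 to 0.21, so the 0.25 was the highest of all pairs. For the 31 members named by rule, 578 values were computed under the alternatives. Of these 559 stayed on the same side of the threshold, and 19 lost the call, all of them for AT1G63290 (9), AT1G56720 (6) and ACLA-2 (4). None gained a call, and none of the called members turned its direction. EXPA18, not called at 0.08, was at -0.008 without replicate 1 of 15B. Dim signal limits 175 members, and 15B is 1 mutant line compared with 1 parent.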
